A study of Mus musculus with 4 samples.

Results

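Connexins are the proteins of gap junctions, and 6 of their genes are described here: *Gja1*, *Gjc1*, *Gja4*, *Gja5*, *Gja3* and *Gjb2*. They were chosen by name as connexins of heart and vessel, by a rule that uses no measured value but with earlier results of these data known, and are 6 of 21755 protein-coding mouse genes off the Y and mitochondrial chromosomes. For each gene, the peaks of accessible chromatin were taken at every annotated transcript start (250 bp each side), in the gene body and over 50 kb upstream. The question was whether the arterial endothelial connexins *Gja4* and *Gja5* differed from the myocyte connexins *Gja1* and *Gjc1* in sorted endothelial and non-endothelial heart nuclei.

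The data were ATAC-Seq libraries, in which the Tn5 transposase cuts accessible DNA, from whole hearts of male C57BL/6 mice of the genotype NuTRAP/Cdh5-Cre, 8 to 12 weeks old. In NuTRAP/Cdh5-Cre animals Cre is driven by the promoter of *Cdh5*, the gene of an endothelial cadherin, and the nuclei of cells of that descent carry GFP. Both groups came from hearts of this genotype, with 2 GFP+ (endothelial) and 2 GFP- (non-endothelial) libraries, each made from 100 to 50000 sorted nuclei. The GFP- group mixes cardiomyocytes, fibroblasts, mural cells and all others, and GFP+ pools arterial, capillary, venous and endocardial nuclei. A peak that is smaller because fewer nuclei of a type are accessible cannot be told apart from less access in each nucleus.

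A single list of peaks was deposited for each group, called from both libraries together, so none of the differences below has a replicate check and no test was made. Neither list holds read counts, so library depth was not used here. The GFP- list held 78912 peaks over 52.1 Mb and the GFP+ list 65008 peaks over 41.8 Mb. The size of a peak is its area, the signal that the authors' caller summed over the length of the peak. Areas of separately called lists are not on a common scale, so each area was turned into a percentile rank among the peaks of the same list, where 0 is the smallest and 100 the largest. A difference is always the GFP+ rank minus the GFP- rank, in points.

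A connexin crosses the cell membrane, and a ring of them forms a hemichannel that docks with its like on the next cell to make a gap junction channel, through which ions and small molecules pass. *Gja1* encodes the main connexin of the working ventricular myocardium and is also used by fibroblasts, smooth muscle and some endothelium. *Gjc1* encodes a connexin of the conduction system and of vascular smooth muscle. *Gja4* and *Gja5* encode the connexins by which arterial endothelial cells couple, and *Gja5* serves atrial and fast-conducting myocytes as well. *Gja3* is best known from the lens and *Gjb2* from the inner ear and skin.

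The DNA just upstream of the transcript starts is shown first, since the peaks at these starts carry most of the comparison. Each line gives the 250 bases before the transcript start whose peak ranked highest, read from GRCm38.p6 (mm10) in the direction of transcription. The start of the 2 short *Gja5* transcripts was added after the values had been seen. Capitals mark matches on either strand to 8 short words, with N for any base. The words were AGGAAG for the ETS family, ACAATG for SOX factors, AGATAA for the GATA factors, AAAATAG for MEF2, AGGTGTG for T-box factors, TNAAGTG for the factor NKX2-5, TGGGAA for RBPJ and TGANTCA for the dimer AP-1. A match is only a match of letters.

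*Gja1*, chr10:56377080-56377329, + strand: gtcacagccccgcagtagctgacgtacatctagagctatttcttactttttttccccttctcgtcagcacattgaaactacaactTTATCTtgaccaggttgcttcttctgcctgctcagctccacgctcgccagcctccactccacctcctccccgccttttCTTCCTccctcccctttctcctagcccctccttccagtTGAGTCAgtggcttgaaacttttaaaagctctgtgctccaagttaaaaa
*Gjc1*, chr11:102819701-102819950, - strand: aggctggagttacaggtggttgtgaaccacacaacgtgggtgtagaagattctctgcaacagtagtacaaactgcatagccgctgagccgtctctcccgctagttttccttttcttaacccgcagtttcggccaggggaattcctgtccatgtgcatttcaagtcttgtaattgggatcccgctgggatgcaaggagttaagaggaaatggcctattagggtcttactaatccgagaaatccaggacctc
*Gja4*, chr4:127314040-127314289, - strand: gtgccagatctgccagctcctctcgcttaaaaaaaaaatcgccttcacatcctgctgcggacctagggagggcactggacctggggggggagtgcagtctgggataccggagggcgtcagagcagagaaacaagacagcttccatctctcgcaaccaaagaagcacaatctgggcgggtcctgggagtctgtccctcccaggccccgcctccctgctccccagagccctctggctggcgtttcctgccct
*Gja5*, long transcript, chr3:96904443-96904692, + strand: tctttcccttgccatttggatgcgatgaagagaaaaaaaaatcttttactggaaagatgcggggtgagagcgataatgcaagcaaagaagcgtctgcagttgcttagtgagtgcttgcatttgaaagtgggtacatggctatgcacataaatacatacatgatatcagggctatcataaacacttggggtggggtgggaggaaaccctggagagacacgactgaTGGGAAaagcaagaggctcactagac
*Gja5*, short transcripts, chr3:97032166-97032415, + strand: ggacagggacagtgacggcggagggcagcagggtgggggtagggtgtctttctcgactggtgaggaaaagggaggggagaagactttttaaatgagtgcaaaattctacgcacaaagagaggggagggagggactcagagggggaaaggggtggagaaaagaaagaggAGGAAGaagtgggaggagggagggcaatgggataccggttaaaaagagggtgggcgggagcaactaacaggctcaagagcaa
*Gja3*, chr14:57058101-57058350, - strand: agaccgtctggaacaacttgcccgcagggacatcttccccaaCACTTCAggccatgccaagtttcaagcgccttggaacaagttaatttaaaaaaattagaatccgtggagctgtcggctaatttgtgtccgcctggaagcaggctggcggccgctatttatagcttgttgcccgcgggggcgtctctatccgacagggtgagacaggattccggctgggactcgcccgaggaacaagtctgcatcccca
*Gjb2*, chr14:57104703-57104952, - strand: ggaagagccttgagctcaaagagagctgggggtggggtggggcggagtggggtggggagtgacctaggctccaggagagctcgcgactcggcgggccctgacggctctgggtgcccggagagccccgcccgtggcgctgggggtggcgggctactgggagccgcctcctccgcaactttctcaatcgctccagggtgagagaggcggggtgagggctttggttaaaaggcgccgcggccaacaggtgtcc

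The *Gja1* stretch held a GATA word at base 86, an ETS word at base 164 and an AP-1 word at base 202, counted from the 5′ end of the line. Over the same 250 bases of all 21755 genes, the GATA word occurred in 9.08%, the ETS word in 29.1% and the AP-1 word in 6.01%. The long *Gja5* transcript had an RBPJ word at base 225 (22.2% of all genes), the short ones an ETS word at base 169, and *Gja3* an NKX2-5 word at base 43 (9.55%). The stretches of *Gjc1*, *Gja4* and *Gjb2* held none of the 8 words, which says only that these letters are not in these windows. *Gjb2* had the highest content of G and C, 69.2%, against 61.2% for *Gja4* and 45.2% for the long *Gja5* transcript.

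A peak lay at a transcript start of all 6 connexin genes in the GFP+ list and of 5 of 6 in the GFP- list, where *Gjb2* had none. Over all protein-coding genes the share with such a start peak was 59.8% in GFP+ and 61.8% in GFP-. No connexin had a start peak in GFP- only, as 2.95% of all genes did. The start peak ranked higher in GFP+ for 3 connexins, *Gja1*, *Gja5* and *Gjb2*, and lower for *Gjc1*, *Gja4* and *Gja3*. Of the 13643 genes with a start peak in either list, 28.6% ranked higher in GFP+, and the median difference was -0.81 points (quartiles -3.27 and 0.10). A percentile also depends on how many small peaks a list holds, and the GFP- list is the longer. Counted by position from the largest peak, *Gja4* stood at 14186 in GFP- and 18459 in GFP+. *Gjc1* stood at 8580 and 8219 and *Gja3* at 15759 and 14120, nearer the top in GFP+.

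**Figure D1:**
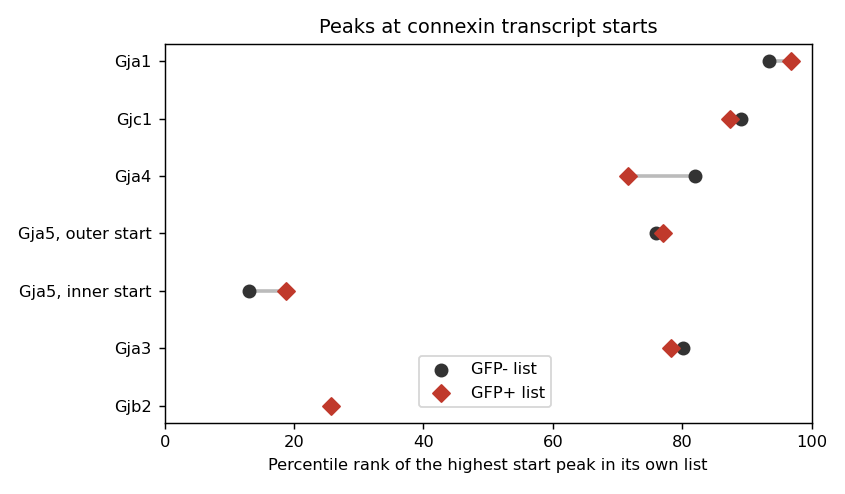
Percentile rank of the highest ranked peak at the transcript starts of each connexin gene, in the GFP- list (circles) and the GFP+ list (diamonds), with both starts of *Gja5* drawn. *Gja1* ranked highest in both lists (93.4 and 96.8), *Gja4* was lower in GFP+ by the largest step (82.0 and 71.6), and *Gjb2* has a GFP+ value only (25.7).

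Among the myocyte connexins, *Gja1* (chr10:56377330-56402513, + strand) had the largest start peak of the family in both populations. Its 6 annotated transcript starts all lay under a single broad peak of 2644 bp in GFP- (chr10:56376985-56379628) and of 2691 bp in GFP+ (chr10:56376980-56379670). The rank was 93.4 in GFP- and 96.8 in GFP+, a difference of 3.41 points, and 93.2% of genes with a start peak had a smaller difference. By area the *Gja1* start peak was thus among the largest of both lists, and it was several times longer than the median peak (469 bp in GFP- and 459 bp in GFP+). Ranked by area per bp it stood at 59.8 in GFP- and 74.5 in GFP+, and in GFP- this was below the start peaks of *Gjc1* (70.1), *Gja4* (73.9), *Gja5* (81.96) and *Gja3* (61.2). Its summit lay 95 bp upstream of the outermost start in GFP+ and 93 bp upstream in GFP-, inside the stretch printed above.

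*Gja1* was also the connexin with the most accessible regions, where a region is a set of overlapping peaks of either list. It had 14 regions, of which 12 were shared, 1 was found in GFP- only and 1 in GFP+ only. Peaks covered 14.5% of its body and upstream window in each list. Of the 12 shared regions 9 ranked higher in GFP+, and their median difference was 4.50 points, while the median over all 53996 shared regions of the genome was -1.80 and 35.4% of those ranked higher in GFP+.

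Just downstream of the *Gja1* starts lay the only connexin regions that were higher in GFP+ by 20 points or more, a step found in 5.07% of all shared regions. The region chr10:56379804-56380394, within a long exon of some transcripts, had rank 27.1 in GFP- and 58.8 in GFP+, a difference of 31.7 points. The neighbouring intronic region chr10:56380850-56382204 had rank 40.9 in GFP- and 73.8 in GFP+, a difference of 32.9 points. Peaks on the coding exon of *Gja1* differed less, with ranks of 63.4 and 65.8, and an intronic region farther along the gene (chr10:56390828-56392370) had ranks of 63.1 and 74.2.

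Upstream of *Gja1*, 4 shared regions lay with their summits at -38038, -7995, -4055 and -936 bp from the outermost start, where a minus sign means upstream. The farthest ranked 54.4 in GFP- and 60.1 in GFP+. At -4055 bp the ranks were 40.8 and 53.9. The region nearest the start went the other way, from 51.9 in GFP- to 36.6 in GFP+. The nearest start of another protein-coding gene, *Tbc1d32*, was 148641 bp away, and all 14 regions were nearest to a *Gja1* start.

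*Gjc1* (chr11:102799579-102819700, - strand) had a start peak of similar rank in both lists, 89.1 in GFP- (chr11:102818307-102819931, 1625 bp) and 87.4 in GFP+ (chr11:102818310-102819662, 1353 bp). The difference was -1.77 points, and 36.3% of genes had a smaller one. The GFP+ peak ended 38 bp short of the outermost of the 5 annotated starts and covered the next ones at 102819210 and 102819179. The inner pair of starts, at 102805788 and 102804901, had no peak in either list.

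Away from its start *Gjc1* differed more between the populations. Of its 8 regions 3 were shared, 4 were found in GFP- only and 1 in GFP+ only, and over the genome 27.6% of regions were in GFP- only and 10.1% in GFP+ only. The GFP- regions upstream, chr11:102834151-102834684, chr11:102836153-102836536 and chr11:102837951-102838896, had ranks of 64.2, 56.3 and 70.4. They surround the start of *Higd1b*, with summits 1363, 3 and 1894 bp from it, so they are nearer to that gene than to *Gjc1*. Without regions this close to another gene (within 2500 bp), only a small intronic peak of rank 0.69 remained in GFP- only. A shared peak at the coding exon ranked 49.4 in GFP- and 34.4 in GFP+.

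**Figure D2:**
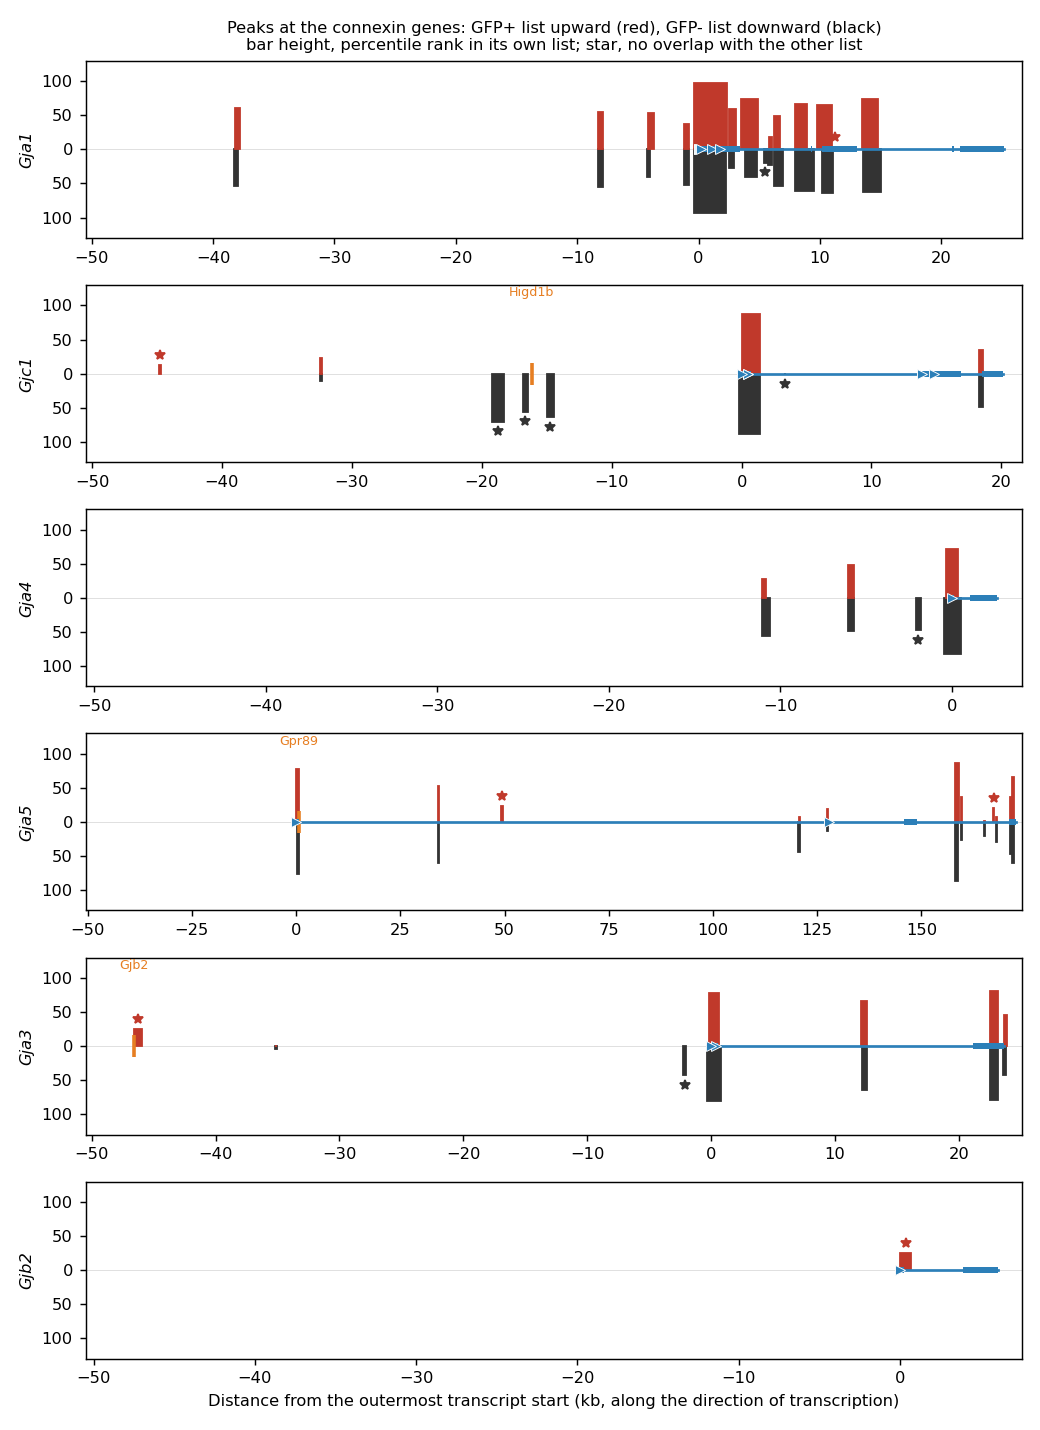
Peaks over the body and the 50 kb upstream of each connexin gene, against distance from the outermost transcript start in kb along the direction of transcription. Bars give the percentile rank of GFP+ peaks upward (red) and of GFP- peaks downward (black), stars mark peaks with no overlap in the other list, and blue marks the gene, its exons and starts (arrowheads); orange ticks mark the starts of *Higd1b*, *Gpr89* and *Gjb2*. The *Gja1* panel is dense on both sides, the unshared GFP- peaks of *Gjc1* stand around *Higd1b*, and *Gjb2* has a GFP+ peak only.

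The arterial connexin *Gja4* (chr4:127311421-127314039, - strand) had the lowest start difference of the 6 connexins. It has a single annotated start, with a peak of 977 bp and rank 82.0 in GFP- (chr4:127313493-127314469) and of 666 bp and rank 71.6 in GFP+ (chr4:127313700-127314365). The difference was -10.4 points, and 11.8% of genes with a start peak had a smaller one. It stayed below 0 under the other rank measures, at -8.12 by area per bp, -9.23 by summit p-value and -9.57 by summed area ranked among genes. The remaining settings take the same start peak in each list and so repeat the main value. The *Gja4* start thus had a peak in endothelial nuclei, but one placed lower in their list than in that of the other heart nuclei.

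All 3 shared regions of *Gja4* ranked lower in GFP+, as did 34871 of the 53996 shared regions of the genome. At -5796 bp (chr4:127319723-127320114) the ranks were close, 48.8 in GFP- and 47.6 in GFP+. At -10883 bp (chr4:127324616-127325126) they were 55.5 and 28.1, a difference of -27.4 points, and 12.1% of all shared regions were lower by 20 points or more. This distal region is nearer to a start of another gene than to that of *Gja4*. The remaining region, chr4:127315827-127316141, was found in GFP- only, at rank 48.0 and 1972 bp upstream of the *Gja4* start. No peak touched the coding exon of *Gja4*.

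*Gja5* (chr3:96904693-97077416, + strand) is annotated with a long transcript and 2 short ones, and its starts had peaks of very different rank. At the outer start the rank was 75.9 in GFP- (chr3:96904858-96905472) and 77.0 in GFP+ (chr3:96904733-96905472), a difference of 1.11 points. That start lies 619 bp from a start of *Gpr89*, the gene of a Golgi pH regulator, and the GFP+ summit was 8 bp from the *Gpr89* start. Neither peak covered the *Gja5* start base, from which they began 165 bp away in GFP- and 40 bp away in GFP+. Accessibility of *Gja5* and of *Gpr89* cannot be told apart in this peak.

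At the inner start, from which both short transcripts begin, the peaks were small. The GFP- peak (chr3:97032027-97032225) had rank 13.1 and ended 191 bp before the start, and the GFP+ peak (chr3:97032044-97032359) had rank 18.8 and ended 57 bp before it. The difference was 5.74 points, and it is the value for *Gja5* if starts within 1000 bp of another gene's start are left out. Both peaks overlap the stretch of the short transcripts printed above.

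The strongest peak of *Gja5* lay far from both starts and was shared. It stood 30563 bp downstream of the inner start, in the last intron of the long transcript and beyond the end of the short ones, at rank 87.1 in GFP- (chr3:97062726-97063453) and 86.3 in GFP+ (chr3:97062759-97063678). The longest coding segment (chr3:97050629-97051702) held no peak, and the nearest peak edge was 11024 bp away in GFP- and 11057 bp away in GFP+. Of the 12 *Gja5* regions 10 were shared, with 4 higher and 6 lower in GFP+ and a median difference of -4.38 points. Over all shared regions 35.4% ranked higher in GFP+, and the median was -1.80.

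Some shared *Gja5* regions were nearly at the bottom of the GFP+ list. The region chr3:97025190-97025677, 7084 bp upstream of the inner start, had rank 43.9 in GFP- and 6.70 in GFP+, a difference of -37.2 points. Near the end of the long transcript, chr3:97072495-97072880 had ranks of 28.8 and 6.75, a difference of -22.1 points. A further region, chr3:97069707-97069920, lay just short of a step of 20 points, with ranks of 20.6 and 0.89. The *Gja5* regions found in GFP+ only were small, with rank 24.0 at chr3:96953850-96954222 and 20.9 at chr3:97071749-97072212. The region at chr3:96953850-96954222 is nearer to a start of another gene than to any start of *Gja5*.

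Summit windows of some unshared peaks, which had no overlap in the other list, are shown next. Each line below is the 200 bases around the summit of the highest ranked unshared peak of a gene away from its own starts, on the strand of that gene, with capitals as before. The *Gjb2* line is the start peak of *Gjb2* itself, which entered as the unshared GFP+ peak in the upstream window of *Gja3*. Windows that touch an exon are not shown. The strongest *Gja5* peak, which is shared, was added after its value had been seen.

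*Gja4*, GFP- only, chr4:127315911-127316110, - strand: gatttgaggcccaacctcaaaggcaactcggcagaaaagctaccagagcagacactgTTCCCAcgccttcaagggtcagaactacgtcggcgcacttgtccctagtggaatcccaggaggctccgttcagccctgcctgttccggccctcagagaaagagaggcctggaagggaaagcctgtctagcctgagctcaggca
*Gjc1*, GFP- only, chr11:102838240-102838439, - strand: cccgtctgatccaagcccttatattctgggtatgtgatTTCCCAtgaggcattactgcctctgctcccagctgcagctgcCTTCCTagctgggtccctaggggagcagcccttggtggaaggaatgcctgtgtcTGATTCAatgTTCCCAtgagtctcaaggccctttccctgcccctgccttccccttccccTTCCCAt
*Gja1*, GFP- only, chr10:56382811-56383010, + strand: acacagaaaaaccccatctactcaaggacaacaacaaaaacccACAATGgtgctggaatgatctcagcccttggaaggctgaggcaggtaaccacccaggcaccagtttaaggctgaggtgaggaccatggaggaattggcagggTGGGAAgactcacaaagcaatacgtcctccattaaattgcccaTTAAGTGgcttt
*Gja3*, GFP- only, chr14:57060084-57060283, - strand: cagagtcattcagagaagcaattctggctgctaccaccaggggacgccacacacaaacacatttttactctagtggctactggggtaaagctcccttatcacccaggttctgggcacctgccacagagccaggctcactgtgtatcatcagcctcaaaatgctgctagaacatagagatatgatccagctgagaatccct
*Gja5*, GFP+ only, chr3:96953878-96954077, + strand: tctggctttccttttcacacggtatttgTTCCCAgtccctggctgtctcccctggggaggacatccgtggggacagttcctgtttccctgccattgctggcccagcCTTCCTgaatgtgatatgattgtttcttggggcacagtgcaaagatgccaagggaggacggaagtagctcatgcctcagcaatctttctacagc
*Gjb2*, GFP+ only, chr14:57104208-57104407, - strand: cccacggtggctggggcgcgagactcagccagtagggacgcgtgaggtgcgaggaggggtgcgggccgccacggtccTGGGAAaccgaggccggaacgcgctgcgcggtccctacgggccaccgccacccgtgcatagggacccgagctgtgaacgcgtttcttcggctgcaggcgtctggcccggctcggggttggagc
*Gja5*, shared, chr3:97062879-97063078, + strand: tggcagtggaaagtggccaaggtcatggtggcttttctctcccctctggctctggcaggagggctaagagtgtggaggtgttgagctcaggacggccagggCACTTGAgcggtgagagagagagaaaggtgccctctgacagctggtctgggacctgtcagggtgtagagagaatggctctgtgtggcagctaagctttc

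The *Gjc1* window near *Higd1b* held the most matches, an RBPJ word at bases 39, 145 and 194, an ETS word at base 81 and an AP-1 word at base 135. The *Gja4* window held an RBPJ word at base 58, and the *Gja3* window none of the 8 words. The shared *Gja5* window held an NKX2-5 word 98 bases before its end. Among windows of this length, the RBPJ word occurred in 21.6% of all GFP- and 20.1% of all GFP+ peaks, and the NKX2-5 word in 9.35% and 9.32%.

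Over all connexin peaks the ETS word was as common as in the lists, at 10 of 40 GFP- and 11 of 38 GFP+ summits, beside 26.7% and 28.6% of all peaks. The NKX2-5 word occurred at 8 of 40 GFP- summits (20%, against 9.35% of all) and 5 of 38 GFP+ summits (13.2%, against 9.32%). The GATA word occurred at 3 of 40 GFP- summits (7.5%, against 8.97%) and 6 of 38 GFP+ summits (15.8%, against 8.87%). The AP-1 word occurred at 7 of 40 GFP- summits (17.5%, against 9.99% of all) and 2 of 38 GFP+ summits (5.26%, against 7.71%). The T-box word occurred at 4 of 40 GFP- summits and 3 of 38 GFP+ summits, beside 2.53% and 3.14% of all peaks. For RBPJ the counts were 6 of 40 and 7 of 38, beside 21.6% and 20.1%. SOX and MEF2 words each occurred at 3 of 40 GFP- and 2 of 38 GFP+ summits. Their shares of all GFP- and GFP+ peaks were 8.11% and 9.4% for SOX, and 5.3% and 5.68% for MEF2. These are counts of a few windows, and most of the windows of one list overlap those of the other.

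Of the connexins known mainly from other organs, *Gja3* (chr14:57034460-57058100, - strand) was nearly the same in both lists. Its start peak ranked 80.03 in GFP- (chr14:57057323-57058407) and 78.3 in GFP+ (chr14:57057483-57058263), a difference of -1.75 points. A peak on its last exon (chr14:57034927-57035574) ranked 78.9 and 81.0, and an intronic one (chr14:57045524-57045979) 64.9 and 66.7. A GFP- peak without a counterpart lay 2084 bp upstream, at rank 42.9. This lens connexin thus had a start peak in both populations, close in rank to that of *Gja4* in GFP- (82.0).

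*Gjb2* (chr14:57098600-57104702, - strand) was the only member with a start peak in GFP+ only, which held for 0.915% of all protein-coding genes. The peak (chr14:57104016-57104678, 663 bp) ranked 25.7 by area and ended 24 bp short of the transcript start. It was wide and shallow, and ranked 2.99 by area per bp and 4.56 by the p-value of its summit. Its area was 378, while no peak of the list was below 200. The nearest GFP- peak was 11381 bp from the start. The difference of 25.7 points for *Gjb2*, a step of 20 points or more that 1.94% of genes showed in this direction, therefore rests on a single peak near the bottom of the GFP+ list. No connexin was lower by such a step at its start, which 7.33% of genes were.

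**Figure D3:**
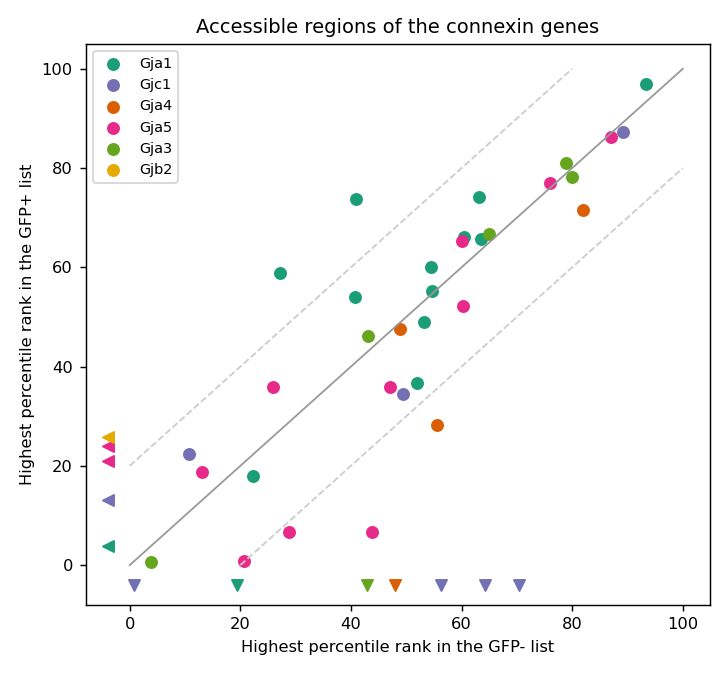
Highest percentile rank of each connexin region in the GFP- list (horizontal) and in the GFP+ list (vertical), coloured by gene. The solid line marks equal ranks, the dashed lines a difference of 20 points, and triangles on the margins mark regions of a single list; 2 *Gja1* regions lie above the upper dashed line, and 1 *Gja4* region and 2 *Gja5* regions lie below the lower one.

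Set against each other, the arterial connexins had a lower median start difference than the myocyte connexins. The median start difference of *Gja4* and *Gja5* minus that of *Gja1* and *Gjc1* was -5.47 points, with 2 genes on each side. By area rank, the genes within each pair pointed in opposite directions. *Gja5* (1.11) and *Gja1* (3.41) lay above 0, and *Gja4* (-10.4) and *Gjc1* (-1.77) below it. By area per bp each pair pointed one way, with *Gja4* at -8.12 and *Gja5* at -8.34, and *Gja1* at 14.7 and *Gjc1* at 2.60. The peak behind the *Gja5* value also lies at the start of *Gpr89*. The arterial minus myocyte difference was below 0 in every setting, from -16.9 by area per bp to -0.11 by the p-value of the summit. Some of the settings take the same start peaks and so repeat the main value. Where a peak had to cover the start base (-11.2), *Gja4* alone stood on the arterial side.

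**Figure D4:**
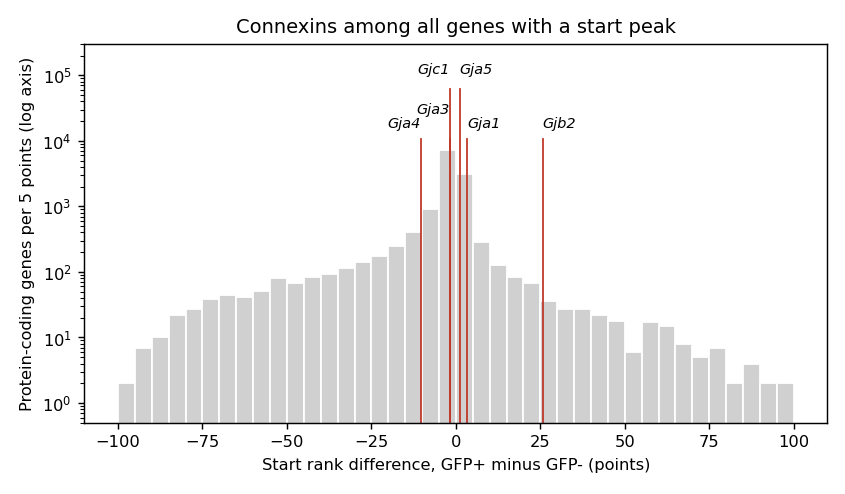
Number of protein-coding genes (log axis, bins of 5 points) by start rank difference, GFP+ minus GFP-, for the 13643 genes with a start peak in either list, with the 6 connexins as red lines. *Gjc1*, *Gja3*, *Gja5* and *Gja1* lie in the central peak of the distribution, *Gja4* on its lower side and *Gjb2* far on its upper side.

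The level over the whole locus set *Gja1* apart from the rest. Summed peak area per kb of body and upstream window was ranked among all protein-coding genes, and *Gja1* stood at percentile 77.0 in GFP- and 87.5 in GFP+. *Gjc1* stood at 63.5 and 49.96, *Gja4* at 54.5 and 43.8 and *Gja5* at 37.4 and 41.5. *Gja3* stood at 55.6 and 60.5, and *Gjb2* at 9.24 and 24.3. The order differed between the lists, since *Gja3* stood below *Gjc1* in GFP- and above it in GFP+. The GFP- level of *Gjc1* includes the peaks around the start of *Higd1b* (ranks 64.2, 56.3 and 70.4). The level without them was not computed, so this change of order cannot be assigned to *Gjc1*. With 1 list a group there is no spread by which to say whether neighbours in these orders differ.

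Most connexin peaks were common to both populations. In the GFP+ list 33 of 38 connexin peaks overlapped a GFP- peak, or 86.8% (Wilson 95% interval 72.7 to 94.2%, counting error only), beside 86.6% of all GFP+ peaks. In the GFP- list 33 of 40 overlapped a GFP+ peak, or 82.5% (68.1 to 91.3%), beside 69.7% of all GFP- peaks, a share that lies within the interval. When both peaks had to overlap by 50% of their length, 31 of 38 and 31 of 40 remained shared, beside 73.7% of all GFP+ and 60.7% of all GFP- peaks. The intervals were then 66.6 to 90.8% in GFP+ and 62.5 to 87.7% in GFP-, so the share of all GFP- peaks lay just below its interval. Peaks of the same gene are not independent, so no interval here is a test. Of the 45 regions of the 6 loci, 33 were shared (62.3% over the genome), 7 were in GFP- only (27.6%) and 5 in GFP+ only (10.1%). The *Gjb2* region, which the upstream window of *Gja3* also holds, is counted once. Of the shared regions 17 ranked higher in GFP+ and 16 lower, beside 35.4% higher over the genome, and 9 of the 17 belonged to *Gja1*.

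Beyond the 6 genes, *Gjd3*, a connexin found in the conduction system, had a start peak in both lists, with rank 68.8 in GFP- and 64.5 in GFP+. Of 3 pannexins, which form channels but rarely junctions, *Panx1* had a start peak, at 83.4 and 77.3. Both genes ranked lower in GFP+.

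The partners of connexins at the intercalated disc and membrane differed little. All 15 had a start peak in both lists, 9 ranked higher and 6 lower in GFP+, none by 20 points, and the median difference was 0.32. *Cav1*, the coat protein of caveolae, ranked 86.2 in GFP- and 93.1 in GFP+, the largest gain in rank of the list. *Src*, a kinase that acts on connexins, had the largest step down, from 88.7 to 84.9. *Pkp2* of the desmosome (89.2 and 89.9) and *Ctnna1* of the adherens junction (95.6 and 96.9) were close, and *Cdh2*, the cadherin of the disc, ranked 97.7 and 95.02. *Prkca*, a kinase of connexin tails, ranked 97.6 and 94.6.

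Among 22 transcription factors and signalling genes known to act on cardiac and vascular connexin genes, 21 had a start peak in either list, with 7 higher and 14 lower in GFP+ and a median difference of -0.28. The steps of 20 points or more were in *Sox17*, *Sox18* and *Dll4* upward and *Tbx5* downward. *Sox17*, a factor of arterial endothelium, had no GFP- start peak and rank 91.3 in GFP+. *Sox18* ranked 21.6 and 79.7, and *Dll4*, the arterial Notch ligand, 66.1 and 95.6. *Tbx5*, a factor of atrial and conduction myocytes that acts on *Gja5*, ranked 87.4 in GFP- and 61.1 in GFP+. *Tbx18* and *Tbx2* followed, with differences of -15.6 and -13.5.

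Marker genes were read in the same way to check what the sorted nuclei were. All 10 endothelial markers ranked higher in GFP+, with a median difference of 51.6, and *Cdh5*, whose promoter drives the Cre, ranked 18.0 in GFP- and 85.3 in GFP+. All 9 fibroblast markers with a start peak ranked lower in GFP+, with a median of -51.5, and so did 10 of 10 smooth muscle and pericyte markers, with a median of -14.8. Start peaks were found for 9 fibroblast markers in GFP- and 3 in GFP+, and for 10 mural markers in GFP- and 5 in GFP+, with *Tcf21*, *Dcn* and *Pdgfrb* among those without one in GFP+. Cardiomyocyte markers had start peaks in both lists for 10 of 10 genes, with 3 higher and 7 lower in GFP+ and a median of -1.75. Their differences ran from -11.3 in *Actc1* to 8.44 in *Ttn*, and *Myh6* ranked near 100 in both lists.

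Of the arterial markers, 6 of 9 with a start peak ranked higher in GFP+, with a median of 0.33, and those other than *Sox17* and *Dll4* differed by between -1.02 and 2.03 points. *Hey1*, *Hey2*, *Dll4* and *Sox17* stand in both this list and that of the regulators. *Efnb2*, the arterial ephrin, ranked 97.7 and 99.5, and *Hey2* 97.7 and 96.7. *Bmx* had no start peak in either list. Of 6 macrophage markers only *Cd68* had a start peak, at 31.8 in GFP- and 16.8 in GFP+. The part of cell mixture in the connexin ranks was not tested.

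**Figure D5:**
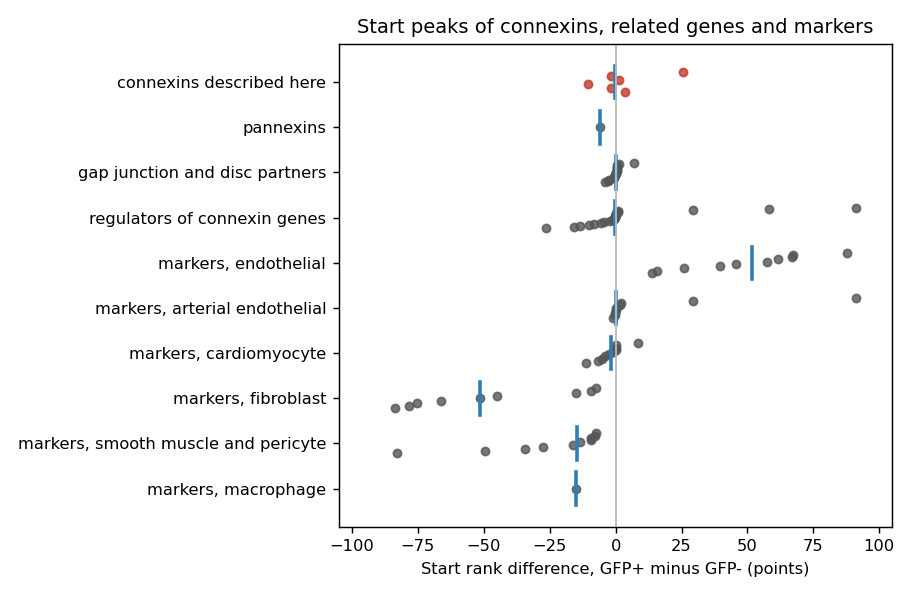
Start rank difference, GFP+ minus GFP- in points, of the connexins described here (red) and of related genes and cell type markers (grey), 1 point a gene with a start peak in either list, with the median of each list as a blue bar. Endothelial markers lie to the right of 0 (median 51.6), fibroblast markers (median -51.5) and mural markers (median -14.8) to the left, and most connexins, their partners and cardiomyocyte markers around 0, with *Gjb2* at 25.7.

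Other genes shared the pattern of each connexin to differing degrees. Likeness was the Euclidean distance over 4 values, the start rank and the locus area percentile in each list, so it describes 2 lists and not shared function. Nearest to *Gja1* were *Kif26a* (distance 2.53) and *2900026A02Rik* (2.96), and nearest to *Gjc1* were *Ttf2* (1.16) and *Ptgfrn* (2.94). *Gja5* and *Gja3* each had 37 genes within a distance of 5, the nearest being *Popdc3* (1.498) and *Shisa2* (1.45). *Gja4* had the fewest such neighbours, *Vipr1* (2.98) and *Slc6a8* (4.95). *Gjb2*, with 3, was nearest to *Speer2* (1.60) and *Lao1* (3.55).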

How the data were processed

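ATAC-Seq was made from 2 GFP+ and 2 GFP- libraries of sorted heart nuclei. As the study's methods and the submitters' processing notes describe it, the authors trimmed with fastp, aligned to mm10 with Bowtie2 (2.3.5.1 in the notes), filtered by quality with SAMtools and took out duplicates with Picard. Libraries were cut to equal read numbers, and Genrich called the peaks, ignoring mitochondrial, Y chromosome and blacklisted reads. The deposited lists hold 1 line a peak: its signal, the area summed by the authors' caller, and the deposited -log10 p-value of its summit. Libraries were pooled at calling, so groups are 1 list each. Read depth is not analysed here.

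Areas were turned into percentile ranks within a list. A start peak overlaps an annotated transcript start by 250 bp each side (GENCODE M21, GRCm38), and peaks that overlap by at least 1 bp are shared. No peak ran past the end of its GRCm38 chromosome. A gene without a start peak in a list was given rank 0 there, and a gene without one in both was left out of differences. Shares have Wilson 95% intervals. Python 3.11.15, numpy 2.4.6, pandas 2.3.3, scipy 1.17.1, pysam 0.24.0 and matplotlib 3.10.9 were used. The overlap and rank steps were tested on simulated data. Sequences came from the RefSeq copy of GRCm38.p6, and 5 of 6 members have an entry in the RefSeq promoter table.

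The members and gene lists were chosen with earlier results of these data known. Named genes are the 6 members, other connexins and pannexins with a start peak (some items are not reported here), the 3 largest differences each way of the partner and regulator lists, 2 nearest genes a member, and examples among the markers. Alternatives changed the start window, the starts used, the rank measure, the smallest rank, the overlap rule and the upstream window. Leaving out starts within 1000 bp, or peaks within 2500 bp, of another gene's start was chosen after seeing the data.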

Additional observations from a re-analysis of the deposited data

How the results depend on the processing

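The difference of *Gja1* (1.09 to 20.2 points) stayed above 0 and that of *Gja4* (-10.4 to -8.12) below 0 in every setting. For both genes only the settings that change the rank measure gave a value other than the main one. That of *Gjb2* ran from 2.99 to 25.7 and could not fall below 0, because its missing GFP- start peak counts as rank 0. Ranked by area per bp, *Gjc1* (2.60), *Gja5* (-8.34) and *Gja3* (13.0) changed sign. The difference of medians between arterial and myocyte connexins was -5.47, and became -11.2 when a peak had to cover the start base, where *Gja5* gives no value, -16.9 by area per bp, -0.11 by summit p-value, -12.2 by summed area ranked among genes, and -3.16 without starts near another gene, a setting chosen after seeing the data. When a peak had to cover the start base, 4 members had a start peak in each list and 1 (*Gja1*) instead of 3 ranked higher in GFP+. Among peaks of rank 25 or more, the share of GFP+ connexin peaks that overlapped a GFP- peak was 96.3% instead of 86.8%. With overlap of 50% of both peaks, the shares were 81.6% in GFP+ and 77.5% in GFP-, beside 73.7% and 60.7% of all peaks. No paired analysis was possible because the lists used here hold 1 set of values a group, pooled over its libraries, and for the same reason no replicate was left out. Values of single libraries were not analysed here. The authors had cut the libraries to equal read numbers, but the lists do not give the reads behind a peak, so a peak in 1 list only may lie just under the caller's limit in the other.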
